A study of Rattus norvegicus with 6 samples.

Results

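The genes described here are 4 rat major urinary protein genes, Mup4, Mup4l4, Mup5 and Obp3, of the 15284 genes that could be named on the array. A probe was taken as a member when its accession mapped to 1 of these 4 symbols or to a synonym in the RefSeq gene table, which gave 9 probes: 2 for Mup4, 3 for Mup4l4, 2 for Mup5 and 2 for Obp3. The genes were picked with the values of the treatment comparison already known, so their differences between the groups are given as a description and not as a test.

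Expression was measured in liver total RNA from male Sprague-Dawley rats, Crl:CD(SD), bought at 5 weeks of age. There were 3 control rats, which received corn oil, and 3 treated rats, which received 1000 mg/kg/day of o-anthranilic acid. RNA from each rat was labelled with Cy3 and hybridised to its own single-colour Agilent array. o-Anthranilic acid is 2-aminobenzoic acid, a small aromatic acid. The labels give 9 weeks of dosing in the treatment protocol and measurement at 28 days in the series design, so the length of exposure behind each value is uncertain. No genetic alteration is named for either group.

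Major urinary proteins, called alpha-2u globulins in the rat, are small secreted lipocalins, proteins folded into a barrel that holds a hydrophobic ligand. The adult male rat liver makes them in large amounts, the kidney filters them, and in urine they carry volatile scent molecules that act in social signalling. Their genes are near-identical copies that lie side by side, and androgens, growth hormone, thyroid hormone and glucocorticoids are known to affect their expression in liver. All 10 hepatocyte markers examined were well above background on all 6 arrays of these samples labelled as liver.

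In the GRCr8 assembly, RefSeq lists the copies on chromosome 5, in a run of 26 genes from Obp3 to Mup4l3 that holds 7 protein-coding Mup or Obp3 genes and 3 Mup pseudogenes. Of those 7 coding genes, 6 had a probe on the array: the 4 genes listed and 2 further copies, Mup4l1 and Mup4l3. The similarity of the copies is visible in the 250 bases before the annotated start of Mup4 and Mup4l4, which are shown because the annotated genes do not extend into these windows. Both lie on the minus strand and are printed 5′ to 3′ from RefSeq, at chr5:79759497-79759746 for Mup4 and chr5:79707808-79708057 for Mup4l4. Capitals mark TATAAA, the core of a TATA box, and a match to TTGCNNAA, a pattern bound by C/EBP factors.
Mup4: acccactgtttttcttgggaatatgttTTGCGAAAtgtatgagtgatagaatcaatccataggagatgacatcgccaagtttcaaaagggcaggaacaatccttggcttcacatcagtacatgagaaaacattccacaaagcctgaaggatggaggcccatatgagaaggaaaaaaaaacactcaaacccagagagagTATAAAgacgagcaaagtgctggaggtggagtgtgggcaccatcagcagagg
Mup4l4: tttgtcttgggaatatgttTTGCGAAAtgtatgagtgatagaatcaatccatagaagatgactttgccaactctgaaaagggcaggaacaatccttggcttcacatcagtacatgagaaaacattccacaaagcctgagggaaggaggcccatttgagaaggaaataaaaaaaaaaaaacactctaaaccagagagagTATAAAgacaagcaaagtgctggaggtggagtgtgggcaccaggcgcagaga

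Aligned over 250 columns, these windows were identical at 225 (90%). The same comparison, over 231 to 250 aligned columns, gave 95.2% for Mup4 and Mup5, 96.1% for Mup4 and Obp3, 91.6% for Mup4l4 and Mup5, 91.8% for Mup4l4 and Obp3 and 97% for Mup5 and Obp3. The longest run shared by all 4 genes was 50 bases, and of 33469 RefSeq windows of the same length 5 held it, those of the 4 genes and of Mup4l3. TATAAA was found on either strand in all 4 windows and in 12.9% of all windows. Relative to the annotated start, its match began at -52 in Mup4, Mup4l4 and Mup5 and at -33 in Obp3. TTGCNNAA was also in all 4 windows, against 9.22% of all windows. TTCNNNGAA, a pattern bound by STAT5, was in none of the 4 and in 7.67% of all windows. AGAACA, one arm of a palindromic element for androgen or glucocorticoid receptors, was found in Obp3 and in none of the other 3, against 17.5% of all windows. Its 2 matches in Obp3 began at -238 and -118. The windows are offset: TTGCNNAA began at -206 in Obp3 and at -223, -231 and -224 in Mup4, Mup4l4 and Mup5. The counterpart of -238 may therefore lie outside the other 3 windows, so its absence there cannot be read. The stretch of 30 bases around the AGAACA match at -118 in Obp3 shows where the windows part, with AGAACA in capitals. It lies at chr5:79759616-79759645 in Mup4, chr5:79707935-79707964 in Mup4l4, chr5:79999816-79999845 in Mup5 and chr5:79640778-79640807 in Obp3.
Mup4: cttggcttcacatcagtacatgagaaaaca
Mup4l4: cttggcttcacatcagtacatgagaaaaca
Mup5: cttggcttcacatcagtacatgagaaaaca
Obp3: cttggcttcacatcAGAACAtgagaaaaca

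The stretch was the same in Mup4, Mup4l4 and Mup5. In Mup5 and Obp3 it lies inside the span of the RefSeq gene, upstream of the start used for the window. The motifs and this stretch were chosen after the sequences had been seen, a match is a description of letters and not a binding site, and the array did not measure binding.

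All 9 probes were well above background on all 6 arrays, and none was saturated. All 9 gave a lower mean signal in the anthranilic acid rats, and for 8 of the 9 every treated rat lay below every corn oil rat, an arrangement that 9.66% of all 33428 tested probes showed. The gap was wide for 2 probes, 1 of Mup4l4 and 1 of Obp3, moderate for the probes of Mup4, and small for the remaining 5, which are the probes with the brightest spots. The median difference over the 9 probes was -0.32 on the log2 scale, where the median of all tested probes was 0.00. Because bulk liver was hybridised, fewer hepatocytes and less of an mRNA per hepatocyte cannot be told apart. Signals below are multiples of the array's own 75th percentile over non-control probes, and differences are log2 anthranilic acid minus corn oil with the standard error of the limma fit.

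**Figure D1:**
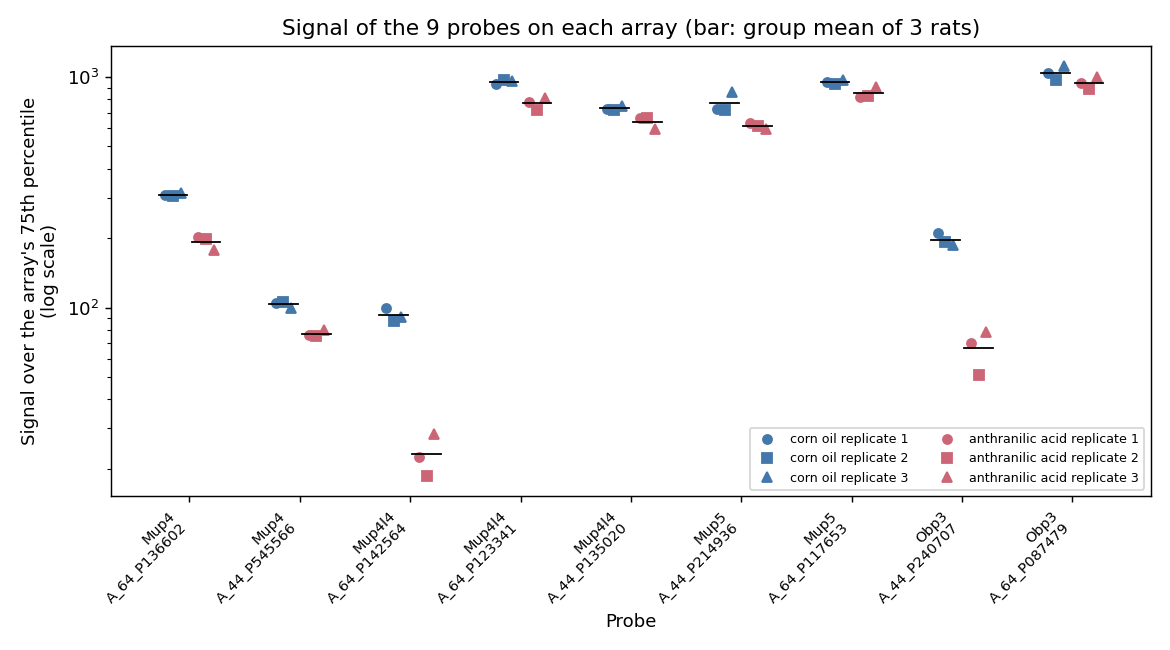
Signal of each of the 9 probes on each array, as a multiple of the array's 75th percentile on a log axis; points are rats, blue for corn oil and red for anthranilic acid, and bars are means of 3 rats. For A_64_P142564 (Mup4l4) the treated rats lie between 18.69 and 28.26 and the corn oil rats between 87.69 and 99.9, and the Obp3 probe A_64_P087479 is the one with overlapping groups.

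Mup4l4 encodes a major urinary protein of the Mup4-like group. Its probe A_64_P142564 (RefSeq NM_147212) read 99.9, 87.69 and 90.71 in corn oil replicates 1, 2 and 3, and 22.51, 18.69 and 28.26 in anthranilic acid replicates 1, 2 and 3. The lowest corn oil signal was 3.103 times the highest treated one, and treated replicate 2 was the lowest of the 6. The treated geometric mean, taken on the log2 scale, was 24.64% of that in corn oil, a log2 difference of -2.02 (SE 0.16, n = 3 per group). Of the tested probes, 50 (0.15%) had a lower difference. Since the genes were picked with this comparison known, that rank is a description and nothing is read from it.

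The other 2 Mup4l4 probes gave a different picture. A_64_P123341 read 928.9, 966.7 and 956.6 in corn oil and 778.8, 716.0 and 812.3 in treated replicates 1, 2 and 3, a difference of -0.31 (SE 0.09). A_44_P135020 read 726.8, 719.8 and 745.1 in corn oil and 661.2, 664.2 and 594.0 after treatment, a difference of -0.19 (SE 0.09). Both separated the groups without overlap, at 80.79% and 87.47% of the corn oil geometric mean. These 3 probes carry 1 gene symbol, and which copies each detects was not tested, since probe sequences were not used here.

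Obp3, named as an odorant-binding protein and also an alpha-2u globulin, showed the same split between its probes. A_44_P240707 (RefSeq NM_147215) read 211.3, 191.8 and 186.2 in corn oil and 70.5, 50.89 and 78.4 in treated replicates 1, 2 and 3. Its treated geometric mean was 33.41% of that in corn oil, with a difference of -1.58 (SE 0.17), and again treated replicate 2 was lowest. A_64_P087479 read 1036.0, 973.0 and 1112.0 in corn oil and 938.4, 887.7 and 995.7 after treatment. The groups overlapped there, because treated replicate 3 was above corn oil replicate 2, and the difference was -0.14 (SE 0.09).

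Mup4 had 2 probes of moderate difference. A_64_P136602 (RefSeq NM_198784) read 307.0, 303.6 and 312.6 in corn oil and 201.8, 198.2 and 177.8 in treated replicates 1, 2 and 3, a difference of -0.68 (SE 0.09). The corn oil rats differed little there, with a coefficient of variation of 1.483%, against 6.703% in the treated rats. A_44_P545566 read 105.0, 105.7 and 99.41 in corn oil and 76.01, 75.04 and 80.18 after treatment, a difference of -0.42 (SE 0.08). Neither probe's groups overlapped.

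Mup5 had only small differences. A_44_P214936 (RefSeq NM_203325) read 729.8, 720.6 and 857.1 in corn oil and 629.3, 615.6 and 595.9 in treated replicates 1, 2 and 3, a difference of -0.32 (SE 0.10). Corn oil replicate 3 stood above the other two rats of its group. A_64_P117653 read 952.8, 932.3 and 966.0 in corn oil and 819.0, 830.3 and 900.9 after treatment, a difference of -0.16 (SE 0.08). The groups did not overlap on either probe, though the lowest corn oil signal of A_64_P117653 was only 1.035 times the highest treated one.

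Over the 9 probes the within-group SD had a median of 0.071 on the log2 scale, with a range of 0.05 to 0.239, against a median of 0.162 over all tested probes. The 2 sets are unlike in brightness, since the 9 lie at percentiles 97.07 to 99.99 of the tested probes. The 2 probes with wide gaps had SDs of 0.299 (A_64_P142564) and 0.325 (A_44_P240707) in the treated rats, and 0.098 and 0.095 in corn oil. In the limma fit over all 33428 tested probes, 1 of the 9, A_64_P142564, was lower at an adjusted p under 0.05 (adjusted p 0.0486), where 0.0239% of all tested probes were called lower. The list was picked on this comparison, so nothing is read from that count. Leaving out any single array other than treated replicate 3 ended the call, with limma adjusted p from 0.0895 to 0.189. Without treated replicate 3, the only array on the second slide, the limma adjusted p was 0.0259. On slide 1 every control array was in row 1 and both treated arrays in row 2, so the effects of row and treatment on that slide cannot be told apart. Treated replicate 3 was in row 1 of slide 2 and read 28.26 on A_64_P142564. The corn oil arrays in row 1 of slide 1 read 87.69 to 99.9. That treated array differed from them in slide and scan as well as treatment, so an effect of row was not tested.

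Within an array, the log2 signal of 1 probe minus that of another probe of the same gene is not altered by scaling the whole array up or down, so it shows whether probes of 1 gene moved by unequal amounts. For Mup4l4, A_64_P142564 minus A_64_P123341 was -3.22, -3.46 and -3.40 in corn oil replicates 1, 2 and 3 and -5.11, -5.26 and -4.85 in the treated ones. The mean went from -3.36 (SD 0.127) to -5.07 (SD 0.21), a change of -1.71 with no overlap. Against the third probe, A_44_P135020, the gap changed by -1.83, from -2.98 (SD 0.101) to -4.81 (SD 0.384). The 2 bright Mup4l4 probes kept overlapping gaps, with a change of 0.11.

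The Obp3 gap, A_44_P240707 minus A_64_P087479, was -2.29, -2.34 and -2.58 in corn oil and -3.73, -4.12 and -3.67 after treatment. Its mean went from -2.41 (SD 0.152) to -3.84 (SD 0.247), a change of -1.44 with no overlap. In Mup4 the change ran the opposite way: A_44_P545566 minus A_64_P136602 was -1.55, -1.52 and -1.65 in corn oil and -1.41, -1.40 and -1.15 after treatment, a change of 0.25 with every treated rat above every corn oil rat. For Mup5 the gap changed by -0.16 and the groups overlapped at -0.38. The probes of Mup4l4 and of Obp3 therefore moved by unequal amounts within the same arrays.

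**Figure D2:**
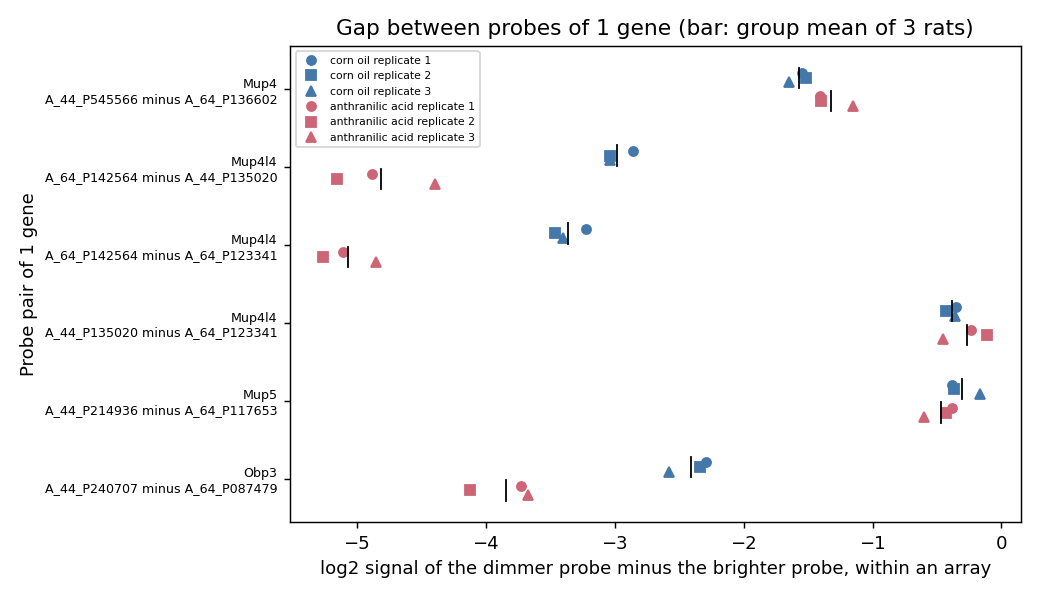
Gap between 2 probes of 1 gene on each array, as log2 signal of the dimmer probe minus log2 signal of the brighter one; points are rats, blue for corn oil and red for anthranilic acid, and black bars are means of 3 rats. The 2 pairs with A_64_P142564 (Mup4l4) and the Obp3 pair lie further left in the treated rats, with mean changes of -1.71, -1.83 and -1.44, and the other 3 pairs change by between -0.16 and 0.25.

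The size of the difference went with the brightness of the spot, though not in every case. In Mup4 the dimmer probe, A_44_P545566, differed by -0.42 and the brighter, A_64_P136602, by -0.68. At 53387 intensity units A_44_P545566 was nearly as dim as A_64_P142564 (Mup4l4) at 47902, which differed by -2.02. Over the 9 probes the Spearman correlation of corn oil signal with difference was 0.87, a description over probes that share arrays and sequence. The 5 probes with a mean corn oil signal of 300000 intensity units or more differed by -0.32 to -0.14. The 76 other tested probes as bright had a median of -0.06, with 5th and 95th percentiles of -0.16 and 0.05, and 80.3% of them were below 0. Between 30000 and 100000 units, where A_64_P142564 (Mup4l4) and A_44_P545566 (Mup4) lie, 1069 other probes had a median of 0.11 and percentiles of -0.36 and 0.33. Between 100000 and 200000 units, where A_44_P240707 (Obp3) and A_64_P136602 (Mup4) lie, 256 other probes had a median of 0.05 and percentiles of -0.49 and 0.38.

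The spots of 3 of the 9 probes reached more than 50% of the scanner's saturation value. The highest were 70.85% for A_64_P087479 (Obp3), 63.28% for A_64_P117653 (Mup5) and 61.12% for A_64_P123341 (Mup4l4), against 6.39% for A_64_P142564 (Mup4l4). Whether the brightest spots respond in proportion to their RNA was not tested. The limit of 300000 units was set after the values had been seen.

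**Figure D3:**
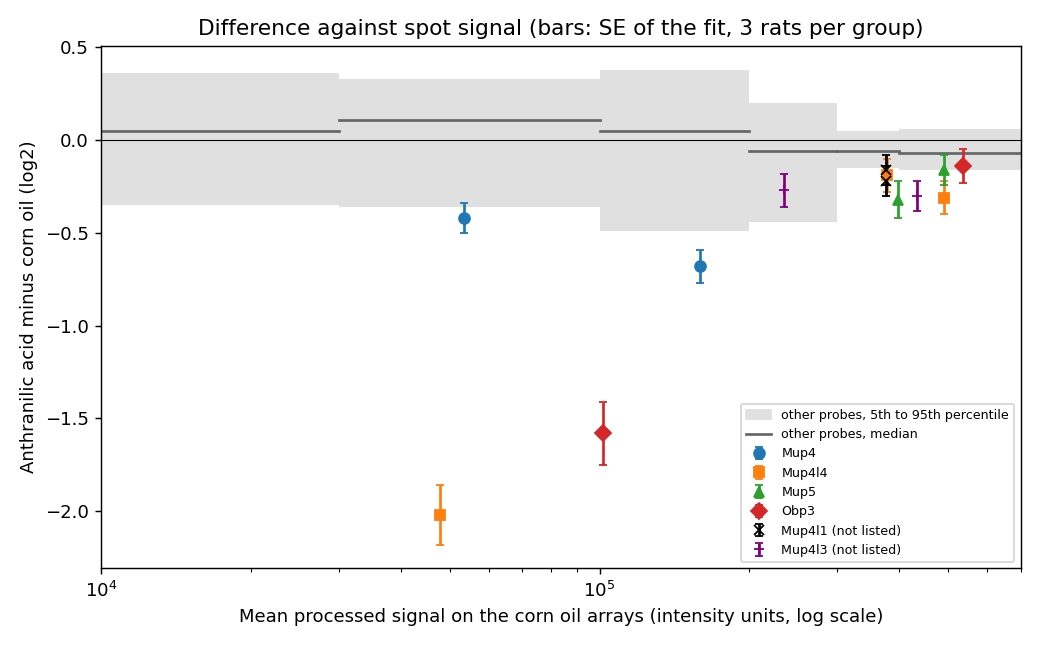
Log2 difference, anthranilic acid minus corn oil, against the mean processed signal on the corn oil arrays (log axis); symbols are probes of the Mup genes with the standard error of the fit, grey boxes the 5th to 95th percentile and grey lines the median of the other tested probes of like signal. The probes at -2.02 (Mup4l4) and -1.58 (Obp3) lie far below the grey boxes, and the 5 brightest member probes lie between -0.32 and -0.14.

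The 2 copies outside the list had 4 probes, all with the treated rats below the corn oil rats, as 9.66% of all tested probes had. Of the 4 probes, 3 had a mean corn oil signal above 300000 units, and A_64_P070573 (Mup4l3) had 234852. Mup4l1 differed by -0.16 (SE 0.08) on A_44_P414630 and by -0.22 (SE 0.08) on A_64_P072451. Mup4l3 differed by -0.30 (SE 0.08) on A_44_P430892 and by -0.27 (SE 0.09) on A_64_P070573. None of the 4 was called in the limma fit. Their differences lie between -0.30 and -0.16, beside -0.32 to -0.14 for the 5 member probes of 300000 units or more. A_64_P142564 (Mup4l4) and A_44_P240707 (Obp3), with far larger differences, are dimmer, at 47902 and 101455 units. Mup4l1 and Mup4l3 had no probe that dim, so these copies cannot be compared with the listed genes at such signals.

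Genes related to Mup expression were taken in lists, each gene represented by the brightest of its tested probes, and tested in the same limma fit. No gene of these lists had a limma adjusted p under 0.05, and of all 10257 tested genes 0% had one. An unadjusted limma p under 0.05 was found for 11.6% of all genes. These shares count only the brightest probe of each gene. Mup4l4 is thus not called here, since its brightest probe is A_64_P123341 (limma adjusted p 0.306) and not A_64_P142564. The median difference over all genes was 0.01. Gene values in the next paragraphs are log2 signal relative to the array's 75th percentile.

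Male-biased liver genes had the lowest median of the 6 lists, -0.41, with 7 of 9 tested genes below 0, 2 of them at an unadjusted limma p under 0.05. The 2 above 0 were Cyp2c13 at 0.34 (SE 0.16) and Cyp2a2 at 0.04 (SE 0.11). Cyp2c11, among the 7 below 0, was at -0.23 (SE 0.26) with overlapping groups. These 3 genes are named after their values were seen. Cyp3a2, a male-specific cytochrome P450 of steroid and drug oxidation, was 9.15, 9.28 and 8.80 in corn oil and 8.76, 7.91 and 8.55 in the treated rats. Its difference was -0.67 (SE 0.25, limma adjusted p 0.387). Bcl6, a transcriptional repressor higher in male than in female liver, was 2.79, 2.21 and 4.50 in corn oil and 1.56, 1.70 and 1.89 after treatment, a difference of -1.45 (SE 0.56, limma adjusted p 0.392). Neither gene's groups overlapped, but corn oil replicate 3 stood far above the others for Bcl6, whose difference was -0.78 without it. The Cyp3a2 difference was -0.42 without treated replicate 2.

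Female-biased liver genes split evenly, 4 above and 4 below 0 of 8 tested, with a median of 0.05 and 1 at an unadjusted limma p under 0.05. Cyp2c12, a female-specific steroid hydroxylase, was 4.14, 3.57 and 4.68 in corn oil and 1.96, 2.87 and 3.60 in the treated rats, with overlap and a difference of -1.32 (SE 0.46, limma adjusted p 0.371). Srd5a1, which reduces testosterone to dihydrotestosterone, differed by 0.62 (SE 0.58, limma adjusted p 0.679) with overlapping groups. That difference depended on single rats: it was 0.07 without treated replicate 2, 0.39 and 0.40 without corn oil replicates 1 and 2, 1.07 without corn oil replicate 3 and 1.00 without treated replicate 3. The male-biased and female-biased genes with the smallest p were thus both lower in the treated rats, without passing the test.

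All 11 genes of growth hormone and IGF signalling were tested, 5 above and 6 below 0, with a median of -0.02 and none at an unadjusted p under 0.05. Socs2, a feedback inhibitor of growth hormone signalling, was 1.61, 1.90 and 0.99 in corn oil and 2.09, 2.07 and 1.99 after treatment. The groups did not overlap, and its difference was 0.55 (SE 0.23, limma adjusted p 0.409), or 0.29 without corn oil replicate 3. Jak2, the kinase attached to the growth hormone receptor, differed by -0.13 (SE 0.09, limma adjusted p 0.567).

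Of 6 hormone receptors, 3 were tested, and none had an unadjusted p under 0.05. Thra, a thyroid hormone receptor, differed by -0.23 (SE 0.13, limma adjusted p 0.488) and Insr, the insulin receptor, by -0.10 (SE 0.09, limma adjusted p 0.662). The Thra difference was -0.15 without corn oil replicate 1 and also without treated replicate 1, and the Insr difference was -0.06 without corn oil replicate 3. Among 10 liver transcription factors 6 were above and 4 below 0, with a median of 0.05 and 1 at an unadjusted limma p under 0.05. Cebpd, an acute-phase member of the C/EBP family, was 1.83, 2.35 and 1.46 in corn oil and 1.22, 1.36 and 1.15 after treatment, without overlap, a difference of -0.64 (SE 0.22, limma adjusted p 0.371), or -0.40 without corn oil replicate 2. Foxa2, a pioneer factor of liver genes, differed by 0.63 (SE 0.26, limma adjusted p 0.41) with overlapping groups.

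Among other lipocalins 5 of 7 tested genes were above 0, with a median of 0.20, and 1 had an unadjusted limma p under 0.05. Orm1, an acute-phase plasma lipocalin, was 6.31, 6.54 and 7.19 in corn oil and 7.20, 7.62 and 7.13 after treatment, a difference of 0.64 (SE 0.25, limma adjusted p 0.398) with slight overlap. Ptgds, a lipocalin that makes prostaglandin D, differed by 0.56 (SE 0.25, limma adjusted p 0.422) with overlapping groups, or by 0.25 with normexp background correction. Rbp4, the retinol carrier of plasma, and Ambp, the precursor of alpha-1-microglobulin, are bright lipocalins that differed by -0.05 (SE 0.08) and -0.06 (SE 0.08), and both were chosen for their brightness after the values were seen.

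**Figure D4:**
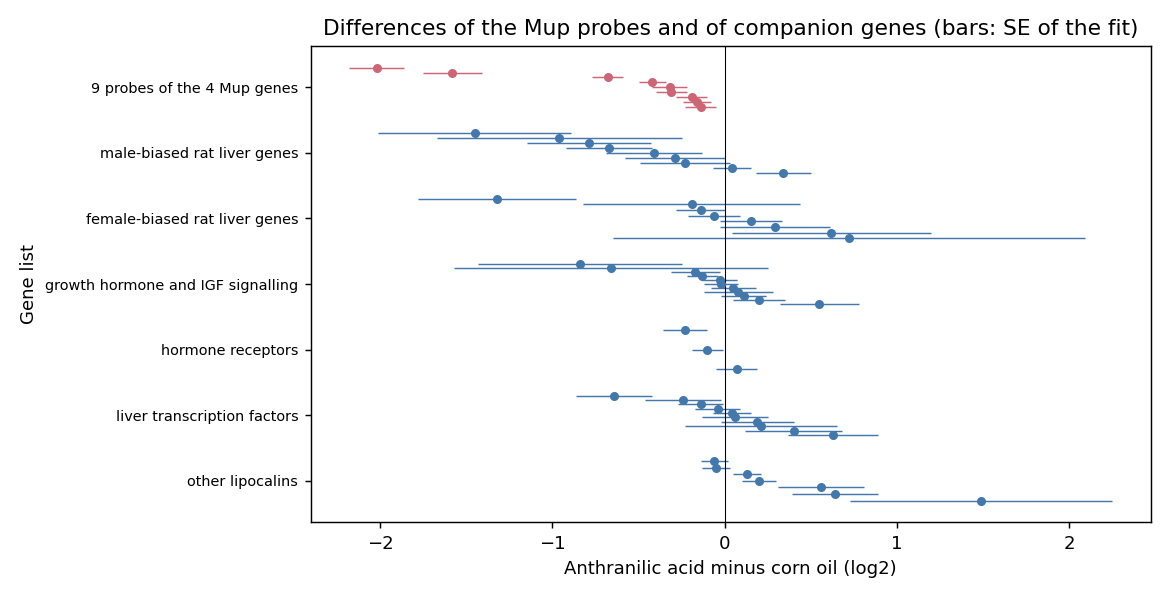
Log2 difference, anthranilic acid minus corn oil, of the 9 Mup probes (red) and of the tested genes in 6 companion lists (blue), sorted within each list, with the standard error of the fit as bars. The Mup probes run from -2.02 to -0.14, all below 0, and every companion list holds genes on both sides of 0. The 2 are drawn unlike: all probes for the Mup genes, only the brightest tested probe for each companion gene. The brightest probes of Mup4, Mup4l4, Mup5 and Obp3 are at -0.68, -0.31, -0.16 and -0.14.

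Markers of liver cell types were read from the same fit, and none was called. The 10 hepatocyte markers had a median difference of -0.07, 8 of them below 0, and 1, Apoa1, at an unadjusted limma p under 0.05 (-0.57, SE 0.15, without overlap). All 6 Kupffer cell and macrophage markers were below 0, with a median of -0.17 and none at an unadjusted p under 0.05. All 4 tested lymphocyte markers of 6 were above 0, with a median of 0.76, and all 4 had an unadjusted limma p under 0.05. The median lymphocyte marker was at -2.48 to -2.08 in corn oil and -1.57 to -0.89 in the treated rats, against 8.98 to 9.09 over the 6 arrays for the hepatocyte list. The medians were -0.02 for 3 endothelial, 0.31 for 3 cholangiocyte, 0.00 for 4 stellate cell and 0.25 for 3 erythroid markers. For exocrine pancreas, fat and muscle it was -0.30 over 2. An unadjusted limma p under 0.05 was also found for 1 endothelial marker (Lyve1, -0.34, SE 0.10), for 2 cholangiocyte markers in opposite directions (Krt19, 0.60, SE 0.23, and Epcam, -0.53, SE 0.17) and for both of the exocrine pancreas, fat and muscle genes, which were lower. These markers are named after their values were seen, since none passed the adjusted threshold. The part of these marker values in the Mup differences was not tested.

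For likeness of pattern, the 5 genes with the highest Pearson correlation over the 6 arrays were taken for 2 probes, as a description of the best of 10257 genes and with no p. For A_64_P087479 (Obp3), the brightest member probe, they were Sema6c at 0.997, Acvr2b at 0.981, Zbtb16 at 0.981, Tedc2 at 0.979 and Grin2d at 0.977. For A_64_P142564 (Mup4l4) they were Ap4b1 at 0.998, Pigc at 0.993, Sema7a at 0.992, Pcdh20 at 0.992 and Dnaja4 at 0.991. With group means removed, the correlation was 1.00 for Sema6c and 0.93 for Ap4b1. Pigc and Dnaja4 were then at 0.75. On A_64_P142564 (Mup4l4) the groups differed by -2.02, against SDs of 0.098 in corn oil and 0.299 after treatment. Correlations with that probe over the 6 arrays, that of Ap4b1 included, therefore rest mainly on the difference between the groups.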

How the data were processed

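Liver RNA of 3 corn oil and 3 o-anthranilic acid rats was read on single-colour arrays of 61657 non-control probes. Per the file headers, Agilent Feature Extraction 10.7.1.1 produced background-subtracted intensity; the submitters' processing notes name version 10.7. The authors' deposited table holds a ratio of that signal to a value per array and served as an alternative. Depth is not defined for arrays: the number of rats limits the precision. With 1 array per rat, the p-values rest on animal and array variation together, with the variance moderated by limma over all tested probes. The 75th percentile was 489.2 to 523.4, 53.28% to 57.98% of probes were well above background, and no spot was saturated. Arrays correlated at 0.9874 to 0.992 within and 0.984 to 0.9885 between groups.

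Processed intensity was log2-transformed, minus each array's 75th percentile over unflagged non-control probes; 14 of 369942 spots were flagged as outliers. This percentile was first taken with flagged spots included, which left the 1 Mup call unchanged. Tested were 33428 probes, well above background on all 3 arrays of a group with at least 2 unflagged spots in each group. Probes were named through RefSeq accessions (GRCr8): 27460 (44.5%) had a symbol. The files' headers name an older build, so only printed sequences have coordinates. limma 3.58.1 in R 4.3.3 (lmFit, eBayes; two-sided; residual degrees of freedom 4, prior 2.3) compared the groups, with Benjamini-Hochberg adjustment over all tested probes and a threshold of 0.05. The fit was tested on simulated data.

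Promoter windows were aligned with Biopython 1.88 (match 1, mismatch -1, gap opening -3, extension -0.5); aligned columns leave out unaligned ends. The RefSeq spans of Mup5 and Obp3 extend upstream of the starts used, so those windows are not printed whole. Named were all members, in each companion list the 2 genes with the smallest p (none was called), and the 5 genes most like 2 member probes; exceptions are marked. The members and all lists were chosen with earlier results of these data known. Replicate numbers did not pair the rats. Alternatives were normexp background correction (offset 50), median and quantile scaling, the deposited table, 2 other filters, slide and replicate blocks, trended robust variance, array weights and leaving out each array.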

Additional observations from a re-analysis of the deposited data

How the results depend on the processing

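All 9 Mup probes were lower in the treated rats under all 16 alternatives. The number called was 1, and 3 with normexp and with trended robust variance, 2 with array weights, 0 without a filter, with the filter on all 6 arrays and with the replicate block, and 0 to 1 leaving out an array. The limma adjusted p of A_64_P142564 ranged from 0.0152 to 0.235; Obp3 A_44_P240707 (0.0271 to 0.283) and Mup4 A_64_P136602 (0.0287 to 0.344) made up the added calls. Their differences ranged from -2.18 to -1.88, -1.71 to -1.40 and -0.71 to -0.62. The median over the 9 probes was -0.32, and -0.27 with median scaling, -0.26 with quantile normalization and -0.37 to -0.30 leaving out an array. The cause of these changes was not tested. The probe gaps, whose alternatives were chosen after seeing the data, changed by -1.86 to -1.62 (Mup4l4) and -1.57 to -1.30 (Obp3). Of all tested probes 11 were called, and 50 with normexp, 45 with trended robust variance, 29 with array weights, 21 with median scaling, 6 with slide as a block, 2 without a filter, with the filter on all 6 arrays and with the replicate block, and 4 to 21 leaving out an array (4 without corn oil replicate 1, 7 without anthranilic acid replicate 2, 19 without anthranilic acid replicate 3, 21 without corn oil replicate 3). The replicate block rests on numbers alone: same-numbered rats correlated at 0.0725, -0.0507 and -0.043 in their deviations from the group means. Differences near 0 moved by over 1.5 times: -0.10 with quantile normalization for A_64_P117653 (Mup5), -0.09 with median scaling and -0.08 with quantile normalization for A_64_P087479 (Obp3), -0.05 with median scaling and -0.06 with normexp for Insr and -0.08 with median scaling for Jak2; Srd5a1 gave 1.00 with slide as a block. No companion gene was called under any alternative. With 3 rats a group, small differences on the brightest spots are not resolved.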
